A study of Mus musculus with 6 samples.

Results

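The genes described here are 9 members of the PARP family of ADP-ribosyltransferases and Dtx3l, the ubiquitin ligase that partners one of them, read in microglia purified from mouse cerebellum. They were taken by symbol from a table of read counts, and all 10 of the 10 named genes had a row among its 23491 gene symbols and were among the 14727 genes tested. All 6 libraries came from mice labelled Fmr1 knock out, a model of fragile X syndrome, so no group with an intact Fmr1 gene is in the comparison. The 3 libraries of the first group were from mice given saline (called sham in the sample titles), and the 3 of the second from mice given poly(I:C), a synthetic double-stranded RNA that mimics viral infection, by intraperitoneal injection. Cells were enriched on magnetic beads against CD11b, which is also on monocytes, neutrophils and other macrophages. The sources used here do not give strain, age, sex, dose, the time between injection and collection, or whether the libraries of a group came from separate animals. The p-values therefore measure only how these samples vary, and that variation may be technical.

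PARP enzymes move ADP-ribose from the cofactor NAD onto proteins and nucleic acids. Parp1 and Parp2 sense DNA breaks and build chains of ADP-ribose that recruit repair factors. Most other members add single ADP-ribose units or none, and Parp9, Parp10, Parp11, Parp12, Parp14, Zc3hav1 and Dtx3l have been linked to the interferon response, the antiviral programme that double-stranded RNA sets off. The question put to the counts was whether these 7 interferon-linked genes and the 2 DNA-repair genes moved alike after poly(I:C), with Parp8, a member with less well known function, set beside them.

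The libraries held between 33710545 and 34899835 counts. Values below are CPM, read counts scaled to a common library total after TMM correction for composition. Fmr1 reads were present in all 6 libraries, at 38.97 ± 1.41 CPM in the saline and 53.7 ± 9.42 CPM in the treated libraries (means ± SD with n = 3, as throughout), which checks no label without an intact group. The microglial genes P2ry12, Tmem119, Cx3cr1 and Itgam were among the 9 microglia markers with a row, whose summed level was between 36412 and 41984 CPM in saline and between 28636 and 39382 CPM after treatment. A pair of libraries stood apart. Saline replicate 1 had a summed level of 12 neutrophil markers of 21498 CPM, against 2436 to 2528 CPM in the other saline libraries and 498 to 2351 CPM with poly(I:C). Poly(I:C) replicate 1 had a choroid plexus marker sum (10 genes) of 19460 CPM, against 3966 to 9344 CPM in the other libraries. The lists also differed between the groups as a whole. All 12 neutrophil genes were lower with poly(I:C) (median log2 difference −2.82, 11 with an unadjusted p under 0.05), all 10 choroid plexus genes higher (1.29, 9 of 10) and all 10 endothelial genes higher (0.65, 1 of 10). None of these genes passed after adjustment, and none was at 0 in all libraries. Their part in the results below was not tested. In bulk samples like these, fewer cells of a type and less RNA per cell cannot be told apart.

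Parp14, Dtx3l and Parp9 are consecutive protein-coding genes on chromosome 16 in the RefSeq annotation of GRCm38.p6, and Dtx3l and Parp9 overlap at their starts on opposite strands. Parp12, Zc3hav1 and Parp11 all lie on chromosome 6, Parp10 on chromosome 15, Parp1 on chromosome 1, Parp2 on chromosome 14 and Parp8 on chromosome 13. The bases before the annotated start were read from RefSeq (GRCm38.p6, an older build than the GRCm39 of the counts). Entries were found for 7 of the 10 genes, and Parp9, Parp10 and Parp14 had none. The 250 bases before each start were searched on both strands for the core of the interferon-stimulated response element (ISRE), taken as GAAA, any 2 bases and GAAA again, and for the gamma-activated site (GAS), TTCNNNGAA, the sequences bound by interferon-activated transcription factors. Zc3hav1, which also rose, Parp2 and Parp8 had entries that are not printed. Promoters are shown for Parp11, the only gene among those 7 with a match, and for Parp12 and Dtx3l, which rose after poly(I:C). That of Parp1 is shown from the 2 DNA-repair members. Capitals mark the matched bases, and all are written 5′ to 3′ on the strand of the gene.
Parp11 (chr6:127446590-127446839, plus strand): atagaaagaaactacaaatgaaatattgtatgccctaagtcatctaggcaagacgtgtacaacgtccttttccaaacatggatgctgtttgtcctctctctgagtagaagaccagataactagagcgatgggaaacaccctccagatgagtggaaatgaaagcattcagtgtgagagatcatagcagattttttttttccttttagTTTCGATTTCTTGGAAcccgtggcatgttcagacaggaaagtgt
Parp12 (chr6:39118350-39118599, minus strand): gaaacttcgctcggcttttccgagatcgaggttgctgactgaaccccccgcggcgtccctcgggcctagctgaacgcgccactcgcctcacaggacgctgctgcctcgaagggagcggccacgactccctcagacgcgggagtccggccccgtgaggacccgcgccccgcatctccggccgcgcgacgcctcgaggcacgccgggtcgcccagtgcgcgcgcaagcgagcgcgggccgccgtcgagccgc
Dtx3l (chr16:35939028-35939277, minus strand): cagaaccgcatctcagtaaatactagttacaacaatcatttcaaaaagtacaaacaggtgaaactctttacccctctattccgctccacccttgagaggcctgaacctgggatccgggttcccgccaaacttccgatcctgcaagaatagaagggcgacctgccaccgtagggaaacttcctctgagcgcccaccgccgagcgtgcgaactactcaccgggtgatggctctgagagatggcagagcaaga
Parp1 (chr1:180568641-180568890, plus strand): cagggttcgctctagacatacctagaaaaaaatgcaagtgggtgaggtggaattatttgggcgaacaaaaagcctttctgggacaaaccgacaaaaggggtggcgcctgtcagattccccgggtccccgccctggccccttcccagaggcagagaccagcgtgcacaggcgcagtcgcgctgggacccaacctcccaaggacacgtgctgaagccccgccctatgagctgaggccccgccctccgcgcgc

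The upstream Parp11 start had an ISRE core, TTTCGATTTC on the gene's strand, from 44 to 35 bases before it, and an overlapping GAS, TTCTTGGAA, from 37 to 29 bases before it. The other annotated Parp11 start had neither, nor had those of Parp12, Dtx3l, Zc3hav1, Parp1, Parp2 and Parp8. Over all 32851 promoter entries the ISRE core was in 2.98% and the GAS in 7.02% of windows of that length. Of the 103 genes called higher with poly(I:C) that had an entry, 31 (30.1%) had the ISRE core and 14 (13.6%) the GAS, against 3.40% and 7.21% of the 11432 tested genes with an entry. A match is a run of letters and not a binding site. The promoters also differed in base composition, from 40.4% G and C for this Parp11 window to 73.6% for Parp12 and 74.8% for Parp8.

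Poly(I:C) was accompanied by higher counts of 6 of the 7 interferon-linked genes and by no called difference in the DNA-repair genes. By the quasi-likelihood test of edgeR, with Benjamini-Hochberg adjustment over all 14727 genes, Parp14, Parp9, Parp12, Dtx3l, Parp10 and Zc3hav1 rose, between 1.77-fold and 3.67-fold. None of the 10 was called lower. Among all tested genes 0.883% were called higher and 0.0747% lower, 0.957% in either direction. An unadjusted p under 0.05 was reached by 9 of the 10 genes, Parp8 being the exception, and by 21.3% of all tested genes. The 6 called genes were also the 6 members at least 1.5-fold higher, a size that 14.5% of tested genes reached. The median log2 difference was 1.22 over the 7 interferon-linked genes and −0.030 over Parp1 and Parp2, against 0.0098 over all tested genes.

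**Figure D1:**
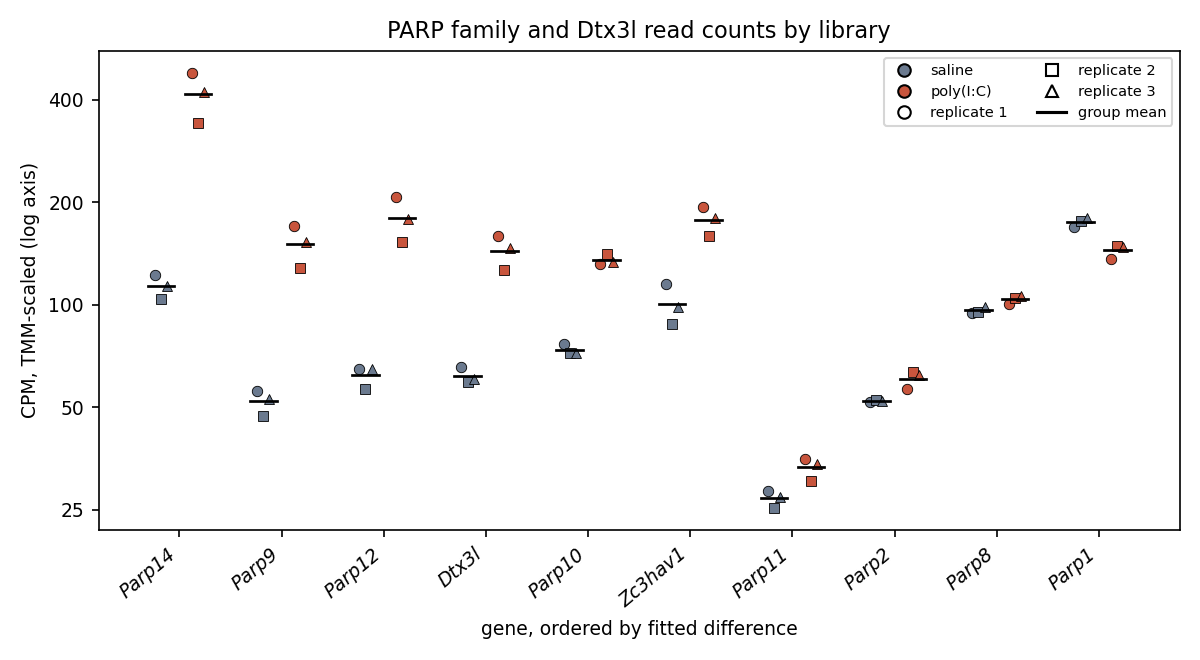
Read counts of the 10 genes in every library, in TMM-scaled CPM on a log axis, with genes ordered by fitted difference. Grey symbols are saline and red symbols poly(I:C) libraries, shapes give the replicate number and bars the group means. Parp14 shows the widest gap, with saline libraries between 104 and 122 CPM and poly(I:C) libraries between 342 and 480 CPM, and Parp1 is the only gene whose poly(I:C) libraries sit below saline.

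Parp14 had the largest difference of the 10 genes. It encodes a large ADP-ribosyltransferase with macrodomains, modules that bind ADP-ribose, and is known as a cofactor of the transcription factor Stat6. Its counts came to 122, 104 and 113 CPM in saline replicates 1, 2 and 3, and to 480, 342 and 421 CPM in the poly(I:C) replicates. Every poly(I:C) library was above every saline library, with more spread among the poly(I:C) libraries. The log2 difference was 1.87 (SE 0.14, adjusted p = 0.00201), a 3.67-fold increase with a 95% interval from 2.90 to 4.63.

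Parp9 and Dtx3l act as a pair. Parp9 is a macrodomain protein that binds Dtx3l, the ubiquitin ligase of the complex, which has roles in interferon signalling and at damaged DNA. Parp9 stood at 55.9, 47.0 and 52.9 CPM in saline and at 170.3, 128 and 153 CPM after treatment. Dtx3l stood at 65.6, 59.1 and 60.4 CPM in saline and at 159, 126 and 147 CPM after treatment. The groups were apart for both genes, and poly(I:C) replicate 2 was the lowest and replicate 1 the highest of the treated libraries in each. Parp9 rose 2.90-fold (log2 1.54, SE 0.13, adjusted p = 0.00281) and Dtx3l rose 2.33-fold (log2 1.22, SE 0.10, adjusted p = 0.00323). Reads in the part where these genes overlap cannot be assigned to one of them without strand, so their split of counts there is uncertain.

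The protein-coding genes that flank this run on chromosome 16, chosen for their position, had overlapping groups. Hspbap1, next to Parp14, was at 8.71 ± 0.95 CPM in saline and 8.59 ± 1.72 CPM after treatment. Kpna1, which encodes an importin and lies next to Parp9, was at 69.4 ± 4.66 and 67.8 ± 7.40 CPM.

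Parp12 and Zc3hav1 carry zinc fingers that bind RNA, and both restrict RNA viruses. Parp12 adds single ADP-ribose units, whereas the protein of Zc3hav1, known as ZAP, has an inactive transferase domain and marks CpG-rich viral RNA for decay. Parp12 was at 64.5, 56.5 and 64.7 CPM in saline and at 207, 152 and 178 CPM after treatment. It rose 2.89-fold (log2 1.53, SE 0.13, adjusted p = 0.00299), close to the value for Parp9 on another chromosome. Zc3hav1 was at 115, 87.5 and 98.5 CPM in saline and at 194, 159 and 180 CPM after treatment. Its libraries did not overlap either, but its saline spread, 13.6 CPM, was the widest of the 10 genes. Zc3hav1 rose 1.77-fold (log2 0.83, SE 0.13, adjusted p = 0.0401). That call was lost in most fits without a single library. The adjusted p was 0.137 without saline replicate 2, 0.216 without saline replicate 3, and 0.0958, 0.0531 and 0.218 without poly(I:C) replicates 1, 2 and 3. The log2 difference of Zc3hav1 stayed between 0.73 and 0.92 in these fits and in the fit without saline replicate 1 (adjusted p = 0.0156).

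Parp10 and Parp11 both add single ADP-ribose units. Parp10 was the least variable of the genes that rose, at 76.4, 72.1 and 72.2 CPM in saline and 132, 140.4 and 133 CPM after treatment, a 1.84-fold increase (log2 0.88, SE 0.07, adjusted p = 0.00277). It was also the only interferon-linked gene with its highest treated value in poly(I:C) replicate 2. Parp11 was at 28.3, 25.2 and 27.3 CPM in saline and at 35.3, 30.4 and 34.1 CPM after treatment. The Parp11 groups did not overlap, yet its log2 difference of 0.30 (SE 0.10, 95% interval 0.060 to 0.54) missed the threshold (adjusted p = 0.188). Parp11, with matches to both motifs at its upstream start only, had the smallest difference of the 7. Parp9, Parp10 and Parp14 had no promoter entry, so motifs and differences cannot be compared over all 7.

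The DNA-repair genes differed in sign. Parp1 is the main sensor of DNA strand breaks and Parp2 its closest relative. Parp1 was at 169, 176 and 180 CPM in saline and at 136, 149 and 147 CPM after treatment. Every poly(I:C) library was below every saline library, but the log2 difference of −0.28 (SE 0.07, 95% interval −0.45 to −0.10) did not pass the test (adjusted p = 0.148). Parp2 was at 51.7, 52.4 and 52.1 CPM in saline and at 56.5, 63.2 and 62.1 CPM after treatment. All 3 treated libraries were higher, with a log2 difference of 0.22 (SE 0.08, 95% interval 0.031 to 0.41) that did not pass either (adjusted p = 0.200). Parp8 stood at 94.5, 95.3 and 98.5 CPM in saline and 100.1, 105 and 106 CPM after treatment, and its log2 difference was 0.11 (SE 0.07, 95% interval −0.053 to 0.27, adjusted p = 0.370).

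The groups did not overlap for any of the 10 genes, 9 higher and 1 lower. This was true of 28.3% of all tested genes, 14.0% higher and 14.3% lower, so it is a weaker sign than the adjusted p. For Parp1, Parp2 and Parp11 another tool gave another call. In limma-voom with sample quality weights, which called 8.61% of tested genes higher and 10.9% lower, Parp1 was called lower (adjusted p = 0.0197) and Parp2 and Parp11 higher (0.0286 and 0.0246). DESeq2, which called 3.76% of genes higher and 3.02% lower, called none of these 3 (adjusted p = 0.0807, 0.346 and 0.207), and over all 15 alternatives the adjusted p ran from 0.0197 to 0.407 for Parp1, from 0.0286 to 0.440 for Parp2 and from 0.0246 to 0.416 for Parp11.

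**Figure D2:**
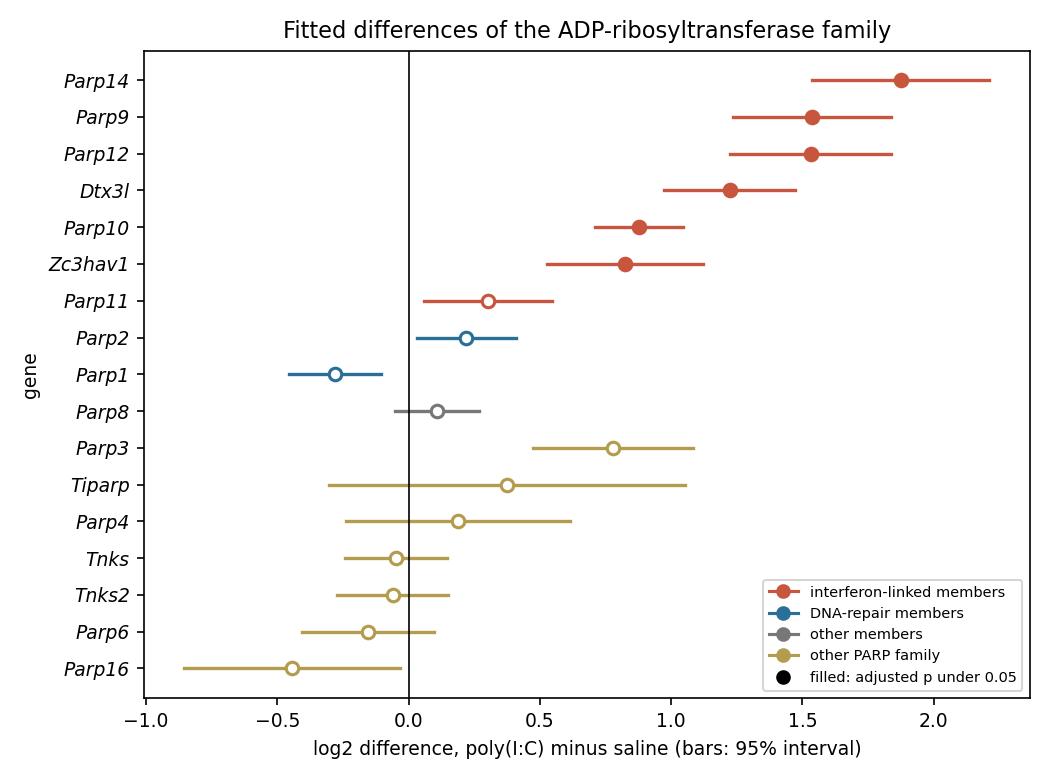
Fitted log2 difference between poly(I:C) and saline (points) with 95% intervals (bars) for the 10 genes and the 7 other PARP family genes, coloured by class. Filled points passed an adjusted p of 0.05, and all 6 filled points belong to interferon-linked genes. Parp3 lies at 0.78 but is open (adjusted p = 0.0552).

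The contrast between the classes was also read from ratios of raw counts inside each library, which do not depend on scaling. The ratio of Parp14 to Parp1 was 0.723, 0.590 and 0.630 in saline and 3.52, 2.30 and 2.86 in the treated libraries, a 4.42-fold difference. The ratio to Parp1 was higher for all 7 interferon-linked genes with no overlap of groups, from 1.496-fold for Parp11 to 4.42-fold for Parp14. Each of the 7 was higher and Parp1 lower without overlap on its own. The separation against Parp1 was therefore fixed by values already given and adds no further evidence. Against Parp2 the groups were apart for the 6 called genes, from 1.53-fold for Zc3hav1 to 3.13-fold for Parp14, but overlapped for Parp11. The ratio of Parp11 to Parp2 was 0.548, 0.482 and 0.524 in the saline libraries and 0.624, 0.481 and 0.549 in the treated ones (1.06-fold, exact two-sided permutation p = 0.600). Relative to their own saline means, the mean log2 value of the interferon-linked genes minus that of Parp1 and Parp2 was 0.13, −0.12 and −0.012 in the saline libraries and 1.41, 0.98 and 1.18 in the poly(I:C) libraries. The Parp2 to Parp1 ratio was 0.305, 0.298 and 0.290 in saline and 0.415, 0.425 and 0.421 in the treated libraries, with a between-library SD of 0.0076 and 0.0051. This ratio was 1.41-fold higher with poly(I:C), although neither gene passed its own test. Its separation likewise followed from Parp2 being higher and Parp1 lower without overlap.

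Ratios among the genes that rose also differed between the groups. Parp9 had 0.852, 0.795 and 0.876 reads for each Dtx3l read in saline and 1.07, 1.02 and 1.04 in the treated libraries, a 1.24-fold difference between overlapping genes. The ratio of Parp14 to Parp9 went from 2.18 ± 0.036 to 2.75 ± 0.077, and that of Parp12 to Zc3hav1 from 0.622 ± 0.051 to 1.00 ± 0.056. The 19 ratios computed reuse the same genes, each of which separated the groups on its own. The share over other gene pairs was not computed. Among the 19, Parp11 to Parp2 was the only ratio whose groups overlapped. An exact two-sided permutation test gave p = 0.100 for each of the others (0.106 after Benjamini-Hochberg adjustment over the 19), the smallest value that 3 against 3 libraries allow, so none could reach 0.05.

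**Figure D3:**
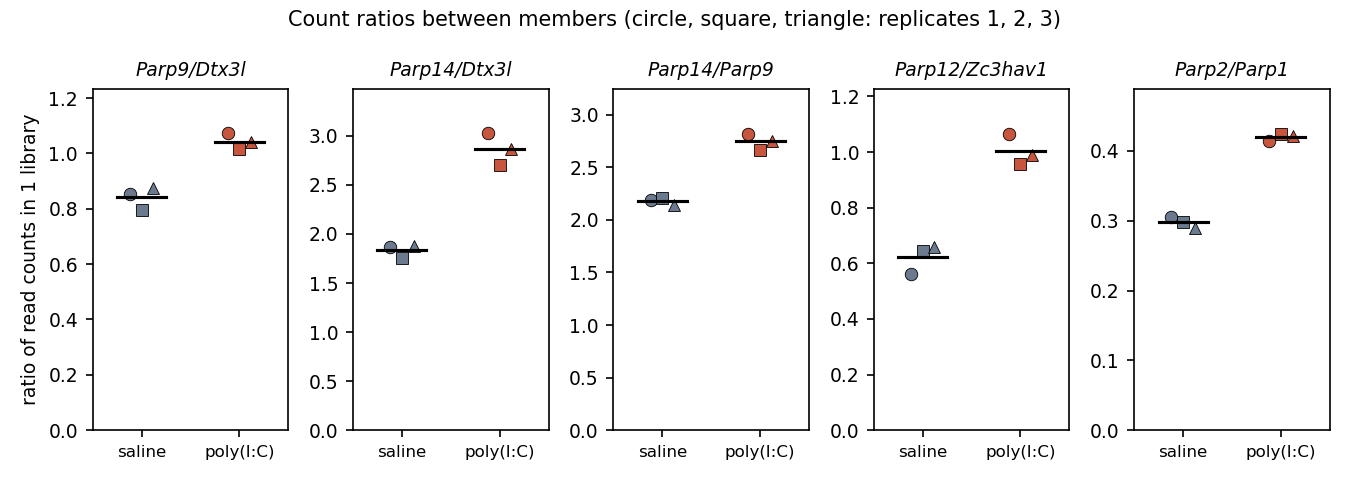
Ratio of read counts between pairs of genes in each library, for 5 of the 19 ratios, with saline in grey, poly(I:C) in red and bars for group means. All vertical axes start at 0. The poly(I:C) libraries lie above the saline libraries in every panel.

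Per length, the order of the genes differed between the groups. Dividing the CPM by the exon length of each gene in GENCODE M21 (the annotation used for counting is not given) put Parp1 first in saline, at 33.0 ± 0.97 CPM per kilobase, above Parp10 at 17.2 ± 0.57. Parp12 and Zc3hav1 followed at 15.5 ± 1.18 and 15.4 ± 2.09, within one another's spread, and then Parp2 at 14.3 ± 0.095. The Parp2 mean lay within the spread of both, but its own narrow spread held neither of them. The spread of Zc3hav1 also reached the Parp10 mean. Parp14, at 12.2 ± 1.00, and Parp8, Dtx3l and Parp9, at 10.8 ± 0.24, 10.8 ± 0.60 and 10.7 ± 0.93, came next, and Parp11 was lowest at 3.84 ± 0.23. In poly(I:C), Parp12 and Parp14 led at 44.8 ± 6.85 and 44.5 ± 7.46 CPM per kilobase and could not be told apart. Parp10, Parp9, Zc3hav1, Parp1 and Dtx3l lay between 25.1 and 31.6, Parp2 was at 16.7 ± 0.98, Parp8 at 11.7 ± 0.34 and Parp11 again lowest at 4.73 ± 0.36.

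Libraries of one group did not carry the interferon-linked genes at one level. Of these 7 genes in scaled CPM, 6 were highest in saline replicate 1 among saline libraries and 7 were lowest in saline replicate 2. For Dtx3l and Parp10 that lowest place rested on the scaling. Dtx3l had 2048 raw counts in both saline replicates 2 and 3, and Parp10 had 2497 and 2449. The share of all tested genes with the same order of libraries was not computed. In the poly(I:C) group 6 were highest in replicate 1 and 6 lowest in replicate 2. Saline replicate 1 is the library with the high neutrophil marker sum and poly(I:C) replicate 1 the one with the high choroid plexus sum. Saline replicate 2, where all 7 were lowest in scaled CPM, had the highest choroid plexus sum of the saline libraries (8464 CPM, against 4060 and 3966 CPM). A link between marker sums and these genes was not tested. Without the first replicates of both groups the neutrophil sums were still 2528 and 2436 CPM in saline against 498 and 586 CPM with poly(I:C), so that difference in markers remained. In that fit 2.40% of all tested genes were called higher and 1.45% lower. The same 6 genes were called higher in it, with log2 differences of 1.84 for Parp14, 1.52 for Parp9, 1.47 for Parp12, 1.22 for Dtx3l, 0.95 for Parp10 and 0.89 for Zc3hav1 and adjusted p between 0.000257 and 0.00411.

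**Figure D4:**
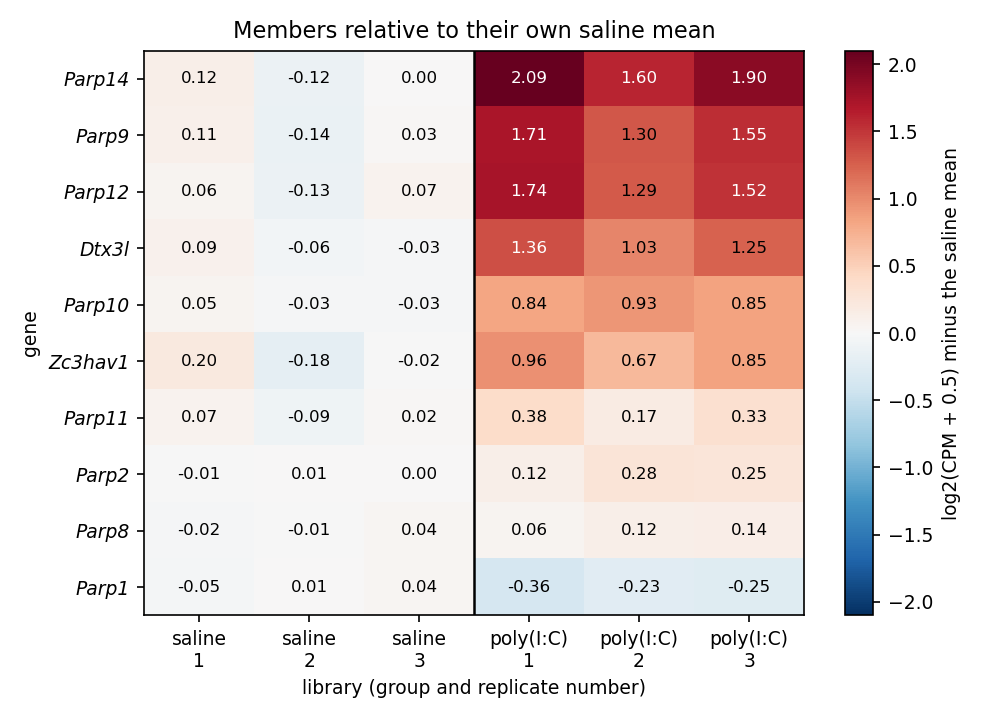
Heat map of log2(CPM + 0.5) minus the saline mean of each gene, with libraries in columns and genes in rows, values printed in the cells and red for higher. Poly(I:C) replicate 1 holds the highest values of most interferon-linked genes (2.09 for Parp14) and the lowest of Parp1 (−0.36).

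Parp9 and Parp12 had nearly the same profile. Likeness was measured as the root mean square difference of log2 values, each centred on its saline mean, over the 6 libraries and among 10346 other genes whose mean reached 5 CPM. Parp12 was the nearest gene to Parp9 and Parp9 the nearest to Parp12, at 0.031. Pml, the scaffold of PML nuclear bodies, was next for both, at 0.064 from Parp9 and 0.079 from Parp12. Dtx3l, the partner and neighbour of Parp9, ranked 16 at 0.22, and Parp14 ranked 17 at 0.24. The nearest genes to Parp14 were Slfn8, Sass6 and Gbp9 (0.072 to 0.10), those to Dtx3l were Zup1, Il15ra and Comp (0.087 to 0.11), and those to Parp10 were Psme2, Ogfr and Sp110 (0.063 to 0.070). Zc3hav1 lay nearest to Fbxo48, Tpst1 and Trim12c (0.052 to 0.070). Genes with small differences had close neighbours at smaller distances, such as Wdr45b for Parp1 at 0.021.

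The other 7 PARP family genes were not called in either direction. Parp3, which acts at DNA double-strand breaks, came nearest, at 15.4 ± 2.02 CPM in saline and 26.4 ± 1.5 CPM after treatment (log2 0.78, SE 0.13, adjusted p = 0.0552). Its groups did not overlap, and 8 of 15 alternatives called it higher, with adjusted p from 0.000241 to 0.277. For Parp16, a transferase of the endoplasmic reticulum, the log2 difference came to −0.44 (SE 0.17, adjusted p = 0.218). Tiparp, a target of the aryl hydrocarbon receptor, stood at 22.6 ± 5.32 and 29.3 ± 10.2 CPM, and Parp4, the vault particle member, at 43.3 ± 9.63 and 49.4 ± 6.98 CPM. Parp6 differed by −0.15 on the log2 scale (adjusted p = 0.402), and the tankyrases Tnks and Tnks2 by −0.048 (0.743) and −0.060 (0.706). The median over the 7 was −0.048.

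Dtx3l stood apart in value from the other Deltex ubiquitin ligases, of which 0 of 4 were called. On the log2 scale Dtx2, Dtx3 and Dtx4 differed by −0.14, −0.26 and −0.20 (adjusted p from 0.329 to 0.577). Dtx1 was near the lower end of detection, at 0.75 ± 0.60 and 1.02 ± 0.42 CPM. The difference between Dtx3l and these genes was not tested.

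Upstream of the PARP genes, 5 of 17 genes of interferon signalling were higher and 0 lower (median log2 difference 0.033). Stat2, a transcription factor activated by interferon receptors, rose 3.32-fold (adjusted p = 0.00108), and its DNA-binding partner Irf9 rose 2.22-fold (0.00145). Irf7 rose 15.7-fold (0.00108), and Usp18, a brake on interferon receptor signalling, 11.3-fold (0.00920). The receptor genes Ifnar1, Ifnar2, Ifngr1 and Ifngr2 and the kinases Jak1, Jak2 and Tyk2 were among the 12 that did not pass.

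Among 14 cofactors of ZAP, 1 was higher and 0 lower (median 0.0082). Trim25, the ubiquitin ligase that ZAP needs for full antiviral activity, went from 68.5 ± 12.4 to 143 ± 18.2 CPM (log2 1.06, SE 0.15, adjusted p = 0.0323). Like that of Zc3hav1, its call was lost without any single library other than saline replicate 1 (adjusted p from 0.0520 to 0.185). Xrn1, the main cytoplasmic exonuclease, stood at 75.4 ± 3.41 and 105 ± 8.27 CPM (adjusted p = 0.0730), the decapping enzyme Dcp2 at 66.4 ± 7.08 and 98.3 ± 16.5 CPM (0.140), and the exosome subunit Exosc5 at 32.2 ± 1.84 and 22.9 ± 3.13 CPM (0.143). Each of these 3 was called in 2 of 15 alternatives.

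Genes that supply NAD or remove ADP-ribose did not pass the edgeR test. Apart from Nampt, the calls reported for them came from limma-voom alone. Of 20 tested genes of NAD synthesis and use, 0 were called (median −0.15). Nampt, the rate-limiting enzyme of NAD salvage, was at 65.1, 51.6 and 49.1 CPM in saline and at 143, 89.9 and 120 CPM after treatment. Those groups did not overlap, and the log2 difference was 1.09 (SE 0.19, adjusted p = 0.0641). Nampt was called higher in 9 of 15 alternatives, with adjusted p from 1.01e-05 (DESeq2) to 0.301. The NAD-dependent deacetylase Sirt2, the NAD kinase Nadk and the mitochondrial NAD carrier Slc25a51 differed by −0.42, −0.49 and −0.20 on the log2 scale (adjusted p from 0.147 to 0.258). For Nadk, saline replicate 1 stood apart, with 260, 146 and 153 CPM in saline and 127, 139 and 133 CPM after treatment. Its log2 difference ran from −0.64 to −0.12 in fits that left out libraries. Of 13 genes that remove or read ADP-ribose, 0 were called (median −0.035). The hydrolase Adprh had a log2 difference of −0.39 (adjusted p = 0.170), the hydrolase Adprs of −0.28 (0.352), the pyrophosphatase Nudt5 of 0.29 (0.332) and the repair factor Aplf of −0.30 (0.321). Limma-voom with quality weights called Sirt2, Slc25a51, Adprh and Adprs lower (adjusted p = 0.0144, 0.0361, 0.0164 and 0.0414), each in 1 of the 15 alternatives. That setting called 10.9% of all tested genes lower, so such calls were common over the whole table.

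The partners of Parp1 and Parp2 in DNA repair gave 0 calls among 20 tested genes (median 0.14). Hpf1, which directs both enzymes to serine, stood at 30.8 ± 2.90 CPM in saline and 39.9 ± 4.43 CPM after treatment (adjusted p = 0.179). Timeless, a replication fork protein that binds Parp1, was at 6.41 ± 4.02 and 24.6 ± 7.39 CPM (log2 1.94, SE 0.45, adjusted p = 0.120). Its groups did not overlap, although its saline libraries varied widely. The Ku subunit Xrcc5 stood at 11.0 ± 0.81 CPM in saline and at 14.5 ± 0.23 CPM with poly(I:C) (0.179). Timeless was called higher in 5 of 15 alternatives, and Hpf1 and Xrcc5 in 1 each.

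The 6 calls were compared over 15 other settings, namely other scalings, filters, tools, a replicate block (which called 1.16% of tested genes higher and 0.604% lower) and fits that left out libraries. Parp14, Parp9, Parp12, Dtx3l and Parp10 were called higher in 15 of 15, with log2 differences from 1.78 to 1.99 for Parp14 and from 0.84 to 0.95 for Parp10. Zc3hav1 was called in 10 of 15. Parp1 was below 0 in all 15, from −0.31 to −0.21, and Parp2 above 0 in all 15, from 0.18 to 0.29.

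**Figure D5:**
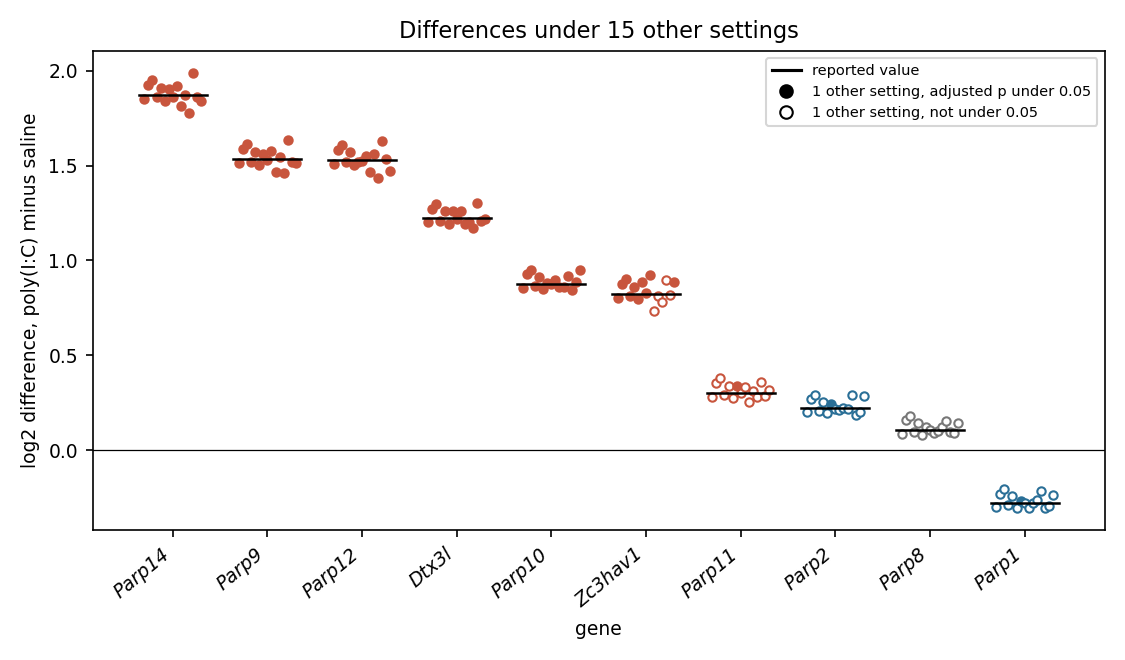
Log2 difference of each gene under 15 other settings (points, filled where the adjusted p was under 0.05) with the reported value as a black bar. Parp14, Parp9, Parp12, Dtx3l and Parp10 are filled throughout, Zc3hav1 is filled in 10 of 15, and no gene changes sign.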

How the data were processed

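The members and gene lists were chosen with earlier results of these data known. The authors deposited raw counts of reads, with gene symbols in rows and the 6 libraries in columns, not normalised. As listed in the submitters' processing notes, fastp, HISAT2 and HTSeq were used with GRCm39. Their versions, settings and strand option are not given in sources used here. Full-length cDNA was made and amplified (SMARTer) before Nextera XT library preparation, per the labels' protocols. Neither strand nor molecular identifiers are mentioned there, and counts are taken as reads.

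The test was that of edgeR 4.0.16 under R 4.3.3 (filterByExpr, TMM, glmQLFit and glmQLFTest, all 6 libraries, no covariate) with Benjamini-Hochberg adjustment over 14727 genes and a threshold of 0.05. Each SE equals the absolute log2 difference over the root of its F statistic. The alternatives were RLE, upper-quartile and no composition scaling, no filter, a filter of 5 CPM in 3 libraries, DESeq2 1.42.0, limma-voom 3.58.1 with quality weights, a replicate block, and leaving out libraries. Of 173 list entries, 5 had no row. On data simulated for this comparison (14514 genes) 6% of genes altered 1.5-fold were called, 43.8% of those altered 2-fold and 68% of those altered 4-fold. Named beside the members were up to 6 called, and otherwise up to 4, genes of each list by smallest p, all 7 other PARP genes, and the 3 nearest genes by profile. Genes flanking a member were chosen for position. Some genes that this rule names are not reported here.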

Additional observations from a re-analysis of the deposited data

How the results depend on the processing

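The 6 members called higher were 5 to 6 without single libraries, 6 with the replicate block and 8 in limma-voom with quality weights, which also called 1 member lower (Parp1). The median log2 difference of Parp1 and Parp2 was 0.043 with total counts only and between −0.061 and 0.037 without single libraries, so its sign is not settled. It was above 0 without poly(I:C) replicate 1. The replicate numbers are not stated to pair animals, so they were not taken as pairs. Same-numbered libraries correlated at 0.15, −0.091 and 0.25 in their deviations from the group means, and differently numbered ones from −0.43 to 0.37. With 3 libraries in each group these values cannot decide whether the numbers are pairs. The replicate block moved the calls from 130 higher and 11 lower genes to 171 and 89. DESeq2 gave 557 and 448, limma-voom 1268 and 1608, no filter 147 and 18, the stricter filter 146 and 16, and leaving out the first replicates of both groups 355 and 214. Without single libraries the calls ranged from 51 to 167 higher and from 0 to 20 lower genes. Small differences turned sign: Tnks at 0.00076 with upper-quartile scaling, 0.027 with total counts only and from −0.081 to 0.00080 without single libraries, Tnks2 at 0.015 with total counts only and from −0.11 to 0.0038, Dtx2 from −0.22 to 0.0045, and Dtx1 at −0.22 without the first replicates. In the simulated data most genes altered 1.5-fold were missed, but those genes were drawn from all levels and spreads. The rate at which differences the size of those of Parp1, Parp2, Parp8 and Parp11 would be missed is therefore not known.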
